A study of Mus musculus with 52 samples.

Results

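Transcription factors that drive the transition of epithelial cells to a mesenchymal state were followed in bulk RNA-seq of mouse pancreatic tumors. They are 8 genes chosen by name (Zeb1, Zeb2, Snai1, Snai2, Twist1, Twist2, Prrx1 and Prrx2) out of the 27525 genes of the deposited table of 32 tumors. The rule uses their names alone. All 8 passed the filter on low counts in every comparison. With both agents Prrx1 rose and its paralog Prrx2 fell, and the other 6 genes did not pass the test against untreated tumors, in a comparison where 43.2% of all genes tested were called.

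Each library held polyA RNA of an individual subcutaneous KPC tumor, with 8 tumors in each of 4 groups. KPC cells (KxPxCx in the labels) come from pancreatic tumors of mice whose engineered alleles are switched on by a Cre that the pancreatic Pdx1 promoter drives, and every group received such cells under the flank skin of male C57BL/6NHsd mice aged 8 to 10 weeks. Tumors were untreated, or received 2 µg of ADU-S100 (an agonist of the innate DNA sensor STING) once into the tumor, or 4 intraperitoneal doses of 100 µg of anti-LTβR (the agonistic antibody 4H8 against the lymphotoxin-β receptor), or both (the combination), and tumors of every group were taken 14 days after treatment began. The question put to these genes was whether either agent, or the pair, moves the program of mesenchymal regulators in a tumor that holds cancer cells and host stroma. Whether a mouse gave more than 1 tumor is not given in the sources used here, so p-values measure the spread between these tumors. In bulk RNA, fewer cells of a type and less RNA per cell cannot be told apart.

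The transition factors bind short DNA motifs, repress epithelial genes such as E-cadherin and keratins, and favor motility and matrix production. ZEB proteins pair zinc fingers with a homeodomain, SNAI proteins are zinc finger repressors, TWIST proteins are basic helix-loop-helix factors that work as dimers with E proteins, and PRRX proteins are paired-related homeobox factors of embryonic mesenchyme. Besides carcinoma cells, fibroblasts express PRRX and TWIST genes, and macrophages express Zeb2.

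Values are normalized counts, for which the authors scaled the reads of each library by a single size factor. Whole reads recovered from a second deposited table ranged from 12762453 to 15591986 per tumor. Differences are on the log2(normalized count + 1) scale and were tested with limma over all genes that passed the filter, with Benjamini-Hochberg adjustment, and a gene was called at an adjusted p below 0.05. Within its own group every one of the 32 libraries had a median correlation of at least 0.948. Host tissue varied between tumors, with summed skeletal muscle markers from 5104 to 324487 and summed keratinocyte markers from 1081 to 53108 normalized counts.

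RefSeq promoter entries (GRCm38.p6) matched 6 of the 8 genes, Zeb1 and Snai2 having no entry, and gave 9 windows of 250 bases before an annotated start. The windows were searched on both strands for the E box CANNTG, for its subset CAGGTG that SNAI and ZEB proteins bind, for the TATA box TATAAA, and for an interferon-response and an NF-κB motif of 10 letters each. Stretches are shown for Prrx1 and Twist2, among the genes called below, and for the windows that held a motif (Snai1 and Twist1). They are written 5′ to 3′ on the gene's strand, without the bases that GENCODE places in an exon of a protein-coding gene. Prrx2 was also called, but its whole window lies in such an exon, so it is not shown. Capitals mark every motif found. They are Snai1 at chr2:167537945-167538194 (plus strand), Twist1 at chr12:33957421-33957670 (plus strand), Twist2 at chr1:91801211-91801460 (plus strand) and Prrx1 at chr1:163313711-163313900 (minus strand).
Snai1: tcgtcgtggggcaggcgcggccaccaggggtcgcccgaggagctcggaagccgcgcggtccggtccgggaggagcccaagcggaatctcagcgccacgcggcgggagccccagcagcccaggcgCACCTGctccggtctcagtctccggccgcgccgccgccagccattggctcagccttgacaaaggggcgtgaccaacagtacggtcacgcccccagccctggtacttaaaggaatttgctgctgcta
Twist1: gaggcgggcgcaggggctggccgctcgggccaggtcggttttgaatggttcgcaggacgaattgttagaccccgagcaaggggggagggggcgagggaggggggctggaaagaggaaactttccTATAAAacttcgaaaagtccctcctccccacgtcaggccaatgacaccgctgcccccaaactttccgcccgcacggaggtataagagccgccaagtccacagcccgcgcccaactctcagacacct
Twist2: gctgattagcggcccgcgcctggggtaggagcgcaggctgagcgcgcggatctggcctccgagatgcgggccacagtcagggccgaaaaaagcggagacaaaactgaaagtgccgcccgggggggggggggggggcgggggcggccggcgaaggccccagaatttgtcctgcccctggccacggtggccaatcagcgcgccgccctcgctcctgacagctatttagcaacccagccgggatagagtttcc
Prrx1: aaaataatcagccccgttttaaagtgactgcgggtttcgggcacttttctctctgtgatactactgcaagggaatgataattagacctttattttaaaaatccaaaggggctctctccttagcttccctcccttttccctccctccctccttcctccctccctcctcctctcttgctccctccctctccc
Snai1 held 1 CAGGTG, read here on the other strand as CACCTG, which is also its only E box. Among all 32851 windows of this length 66.2% held a CANNTG and 17.2% a CAGGTG. The capitals in Twist1 are a TATAAA, found in 12.4% of all windows. None of the motifs was in the windows of Twist2, Prrx1, Prrx2 or Zeb2, and the interferon-response and NF-κB motifs were in none of the 9, against 2.98% and 0.356% of all windows. All 250 bases of the Prrx2 window lie in an annotated exon of Prrx2, and some Zeb2 windows overlap one another and hold exon bases. No match says only that these letters are not in these bases.

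Per kilobase of exon the 8 genes spanned a narrow range. Averaged over 32 tumors, Twist1 stood highest at 394 normalized counts per kb, followed by Snai1 at 377, Prrx2 at 284 and Snai2 at 180.1. Zeb1 (121), Zeb2 (111), Prrx1 (101) and Twist2 (86.7) formed the lower part of the order. Neighbors in this order overlapped across the tumors except Snai2 and Zeb1, whose ranges of 139.6 to 248 and 94.2 to 139 per kb did not meet. Prrx1 changed place between groups, from the lowest of the 8 in untreated tumors (85.1 per kb) to above Zeb1 (116), Zeb2 (106) and Twist2 (93.7) in combination tumors (149 per kb).

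In GRCm38 with GENCODE M21, Prrx1 (ENSMUSG00000026586) lies on chromosome 1 at 163245119 to 163313710 (minus strand) and Prrx2 (ENSMUSG00000039476) on chromosome 2 at 30834972 to 30881251. Twist2 (ENSMUSG00000007805) is on chromosome 1 at 91801461 to 91848028 and Twist1 (ENSMUSG00000035799) on chromosome 12 at 33957671 to 33959829. Snai1 (ENSMUSG00000042821) is on chromosome 2 at 167538195 to 167542814, Snai2 (ENSMUSG00000022676) on chromosome 16 at 14705852 to 14709385, Zeb1 (ENSMUSG00000024238) on chromosome 18 at 5591860 to 5775467 and Zeb2 (ENSMUSG00000026872) on chromosome 2 at 44983632 to 45117395 (minus strand). The values are sums over each gene, and the libraries mark strand, but the strand setting of the counting is not given in the sources used here. Reads of Zeb1, Zeb2, Twist2 and Prrx1 may therefore include some from genes on the opposite strand that overlap them, such as Gm10125, Zeb2os, Gm29100 and Gm20471.

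**Figure D1:**
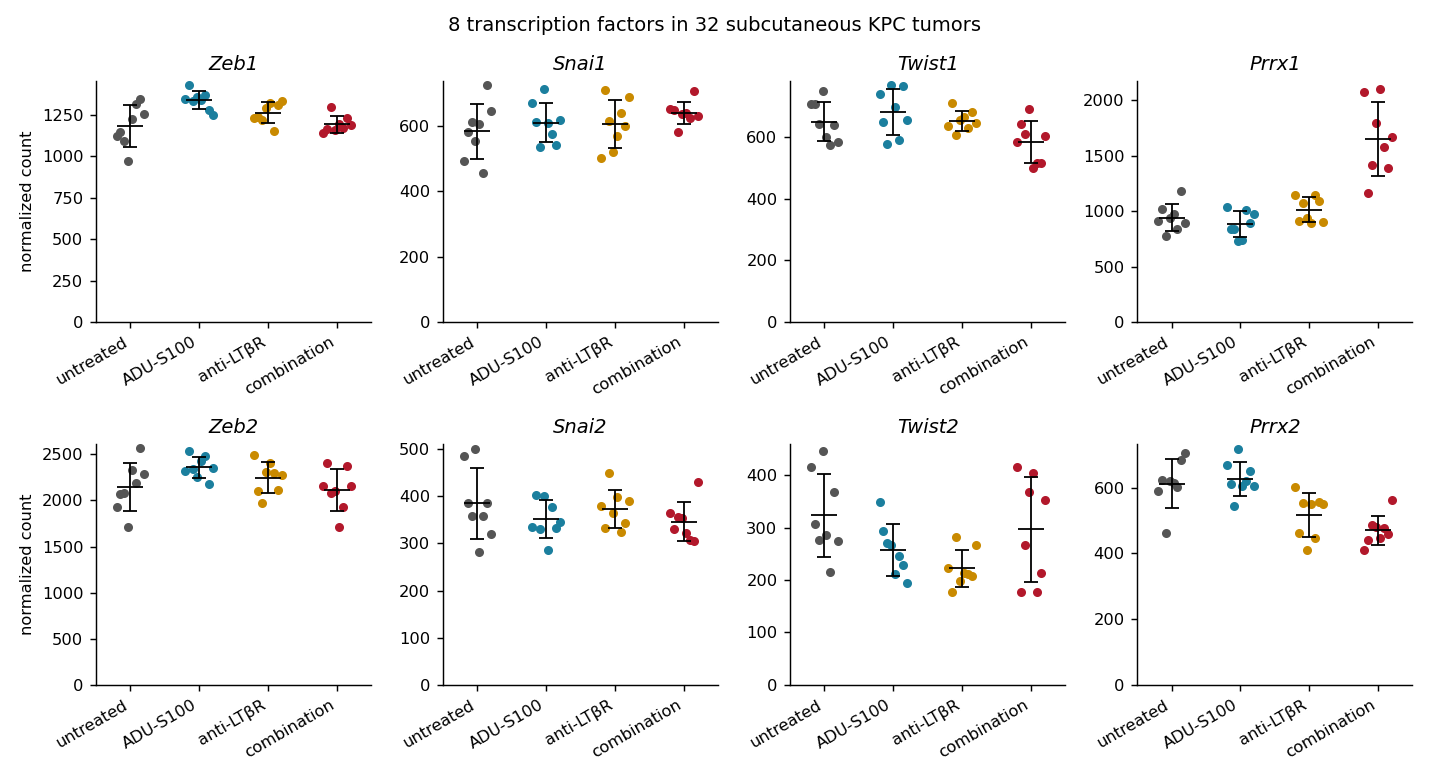
Normalized counts of the 8 genes in each tumor (points) by treatment, with the group mean and SD as a bar and whiskers (n = 8 per group). Prrx1 stands out with 1163 to 2106 in combination tumors against 776 to 1183 in untreated tumors, while Prrx2 ran from 411 to 562 against 461 to 707.

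Prrx1, a homeobox factor of fibroblast and mesenchymal precursors, was the gene that moved most. Its lowest, median and highest values were 776, 925 and 1183 normalized counts in untreated tumors and 729, 865 and 1039.6 with ADU-S100. They were 893, 1005 and 1144 with anti-LTβR and 1163, 1622 and 2106 with the combination. Both monotherapy groups lay within or near the untreated range, whereas the combination raised 7 of its 8 tumors past the highest untreated tumor and all 8 past the highest of either monotherapy.
The means were 941 ± 124, 883 ± 117, 1013 ± 111 and 1649 ± 333 (SD, n = 8 each) in the same order. Against untreated tumors Prrx1 rose by 0.79 in log2 units (95% interval 0.55 to 1.04, standard error 0.115), or 1.73-fold, with an adjusted p of 7.78e-05 from limma. In that comparison 43.2% of the 16909 genes tested were called, 19.6% higher and 23.6% lower, and 2 of the 8 factors were called, 1 in each direction. Groups without any overlap, which no factor showed here, made up 4.64% of genes in the higher and 6.04% in the lower direction. No factor was called with a 2-fold change in any comparison, which 6.12% of genes were here, 1.04% with anti-LTβR against untreated, 2.11% for the combination against anti-LTβR, 6.17% against ADU-S100 and 3.06% for the interaction of the agents. Across the other settings tried the difference stayed between 0.71 and 0.83, and it passed in each.

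Prrx2, the paralog of Prrx1 that shares its homeobox family, went the other way. Its lowest, median and highest values were 461, 618 and 707 in untreated tumors, 545, 616 and 719 with ADU-S100, 409.8, 550.3 and 603 with anti-LTβR and 411, 468 and 562 with the combination. Of the 8 combination tumors, 4 were below every untreated tumor, and the single low untreated tumor at 461 made the groups overlap. Its mean of 613 ± 73.6 without treatment became 470.4 ± 44.8 with both agents (SD, n = 8 each). The fit put that at -0.38 in log2 units (standard error 0.0790) or a ratio of 0.77, with an adjusted p of 0.00123 from limma, and Prrx2 fell in every setting tried.

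Because both genes were read in the same tumors, their ratio needs no scaling between libraries. Prrx1 over Prrx2 in normalized counts ran from 1.26 to 1.73 in untreated tumors, 1.01 to 1.62 with ADU-S100, 1.62 to 2.56 with anti-LTβR and 2.64 to 5.06 with the combination. The combination tumors thus held the 8 highest ratios of these 32 tumors, given here as a description with no test. Tumor by tumor within a group Prrx1 and Prrx2 showed little relation (r = 0.16 and rho = 0.15 over 32 tumors after subtracting group means, permutation p = 0.373 and 0.426, and r = 0.17 without the 2 tumors farthest from the median).

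**Figure D2:**
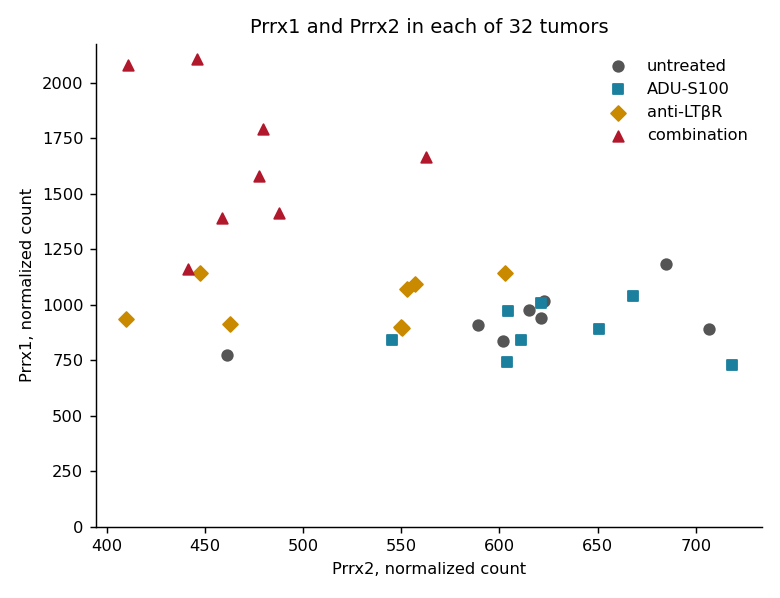
Prrx1 (vertical axis) against Prrx2 (horizontal axis, not starting at 0) in normalized counts, 1 point per tumor, by treatment. Combination tumors occupy the upper left, with a Prrx1 to Prrx2 ratio of 2.64 to 5.06, and no tumor of the other groups plotted had a ratio above 2.56.

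Each agent alone gave a smaller picture. ADU-S100 tumors did not differ from untreated tumors at the threshold in any of the 8 genes or in any of the 16613 genes tested (0% called by limma, with 2408 genes at an unadjusted p under 0.05, against 1 gene called by edgeR and 57 by DESeq2). Only 0.0301% of genes had every ADU-S100 tumor above every untreated tumor and 0.012% the reverse. Zeb1, which silences E-cadherin, had the smallest p of the 8. Its values were 968, 1184 and 1343 in untreated and 1246, 1340.5 and 1429 in ADU-S100 tumors (lowest, median and highest), with 4 of 8 ADU-S100 tumors above every untreated tumor. That difference of 0.18 on the log2 scale (95% interval 0.06 to 0.31) had an unadjusted p of 0.00637 and an adjusted p of 0.279 from limma. Zeb2 (0.15) and Twist2 (-0.32) were also under an unadjusted 0.05 without passing, with adjusted p of 0.333 and 0.338 from limma.

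With anti-LTβR alone 15.3% of 16691 genes were called, 7.21% higher and 8.1% lower, and 1 of the 8 factors, Twist2, was among the lower. Groups were apart in 0.809% of genes upward and 0.965% downward, and in none of the factors. Twist2, a basic helix-loop-helix factor of dermal and other mesenchyme, had a lowest, median and highest value of 216, 296 and 447 without treatment and of 177, 213 and 282 with anti-LTβR. The antibody group sat at the low end of the untreated range, with 5 of 8 tumors below every untreated tumor. Twist2 fell by 0.52 in log2 units (standard error 0.137), its mean passing from 324 ± 79.1 to 222 ± 35.0 (SD, n = 8 each), at an adjusted p of 0.0208 from limma. Averaged over the 32 tumors it had the lowest level of the 8, per kb and in normalized counts. In combination tumors it was spread from 177 to 417, with 3 tumors below every untreated tumor, where -0.17 against no treatment (95% interval -0.60 to 0.27) did not pass (adjusted p = 0.538 from limma). Prrx2 was 517 ± 67.3 with anti-LTβR, a difference of -0.25 whose adjusted p was 0.0707 from limma, 0.0432 with DESeq2 on recovered reads and 0.0288 in limma's joint fit of the 4 groups.

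The remaining members stayed close to untreated levels under the combination. Zeb1 averaged 1182 ± 125 without and 1191 ± 50.1 with the pair of agents (SD, n = 8 each), a difference of 0.02 with a 95% interval of -0.11 to 0.14. Zeb2, the other ZEB repressor, was 2147 ± 262 and 2114 ± 226 (difference -0.02, interval -0.19 to 0.15). The intervals of both leave room for a shift of at most 0.19 on the log2 scale in either direction.
Snai1, the zinc finger repressor that acts early in the transition, averaged 585 ± 84.5 without and 641 ± 34.3 with both agents (difference 0.14, interval -0.02 to 0.31, adjusted p = 0.148 from limma). Its paralog Snai2 was 385 ± 75.4 and 346 ± 40.8 (difference -0.14, interval -0.37 to 0.09). Twist1 was 650.2 ± 64.3 and 583 ± 68.2 (difference -0.16, adjusted p = 0.0993 from limma), and 3 of the 8 treated tumors lay below the untreated range. None of these 5 genes passed, and the intervals show that a shift of the size seen for Prrx1 was outside what was measured for each of them.

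**Figure D3:**
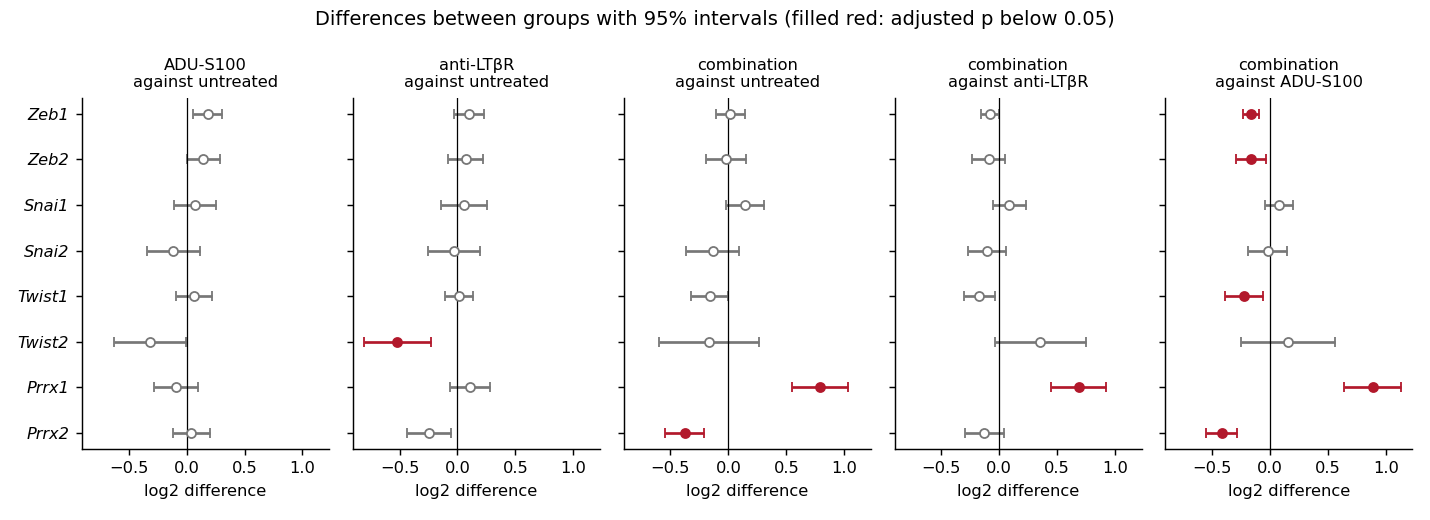
Log2 differences of the 8 genes (points) in 5 comparisons with 95% intervals (bars), filled red where the adjusted p from limma was below 0.05. Prrx1 lies at 0.79, 0.68 and 0.89 in the 3 comparisons of the combination, and Zeb1, Zeb2 and Twist1 are red on the negative side against ADU-S100 only.

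The combination was also compared with each monotherapy. These comparisons use the same combination tumors as above and are given side by side, not as separate evidence. Against anti-LTβR 26.6% of 16932 genes were called, 11.3% higher and 15.3% lower, and Prrx1 was the single factor among them, higher by 0.68 (standard error 0.111, adjusted p = 0.000925 from limma). Its groups did not overlap, which held in the higher direction for 1.45% of genes and in the lower for 1.71%. Twist1 was 653 ± 32.4 with anti-LTβR, with -0.17 for the combination against it (adjusted p = 0.0549 from limma, not called), and Prrx2 did not pass either (-0.13, adjusted p = 0.247).

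Against ADU-S100, where 46.2% of 16811 genes were called (20.2% higher and 26% lower), 5 of the 8 factors were, 1 higher and 4 lower. Prrx1 was higher by 0.89 (standard error 0.116, adjusted p = 3.09e-05 from limma) with no overlap, as for 5% of genes in that direction and 6.96% in the other. Prrx2 was lower (-0.42, adjusted p = 7.87e-05 from limma), and in 7 of the 8 tumors given both agents it lay below every ADU-S100 tumor.
Zeb1 was lower by -0.17 (standard error 0.0344, adjusted p = 0.000943 from limma), from 1337 ± 55.6 to 1191 ± 50.1 (SD, n = 8 each), again with 7 of 8 tumors below. Zeb2 was lower by -0.17 (2362 ± 115 against 2114 ± 226, adjusted p = 0.0319 from limma) and Twist1 by -0.22 (681 ± 74.7 against 583 ± 68.2, adjusted p = 0.0279). Snai1, Snai2 and Twist2 did not pass. The Zeb2 and Twist1 calls were lost when edgeR scaled the recovered reads by their totals (adjusted p = 0.0842 and 0.0582) and with only libraries above 14000000 reads (adjusted p = 0.175 and 0.109 from limma), and Zeb2 also with edgeR's RLE size factors (adjusted p = 0.0627).

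A joint fit of the 32 tumors tested whether the response to both agents departs from the sum of the responses to each on the log2 scale. The interaction was called in 18.4% of 17649 genes (7.33% positive and 11% negative) and in 2 of the 8 factors. For Prrx1 it was 0.78 (95% interval 0.48 to 1.08, adjusted p = 0.000848 from limma), nearly the size of the whole difference from untreated tumors, the differences with ADU-S100 alone (-0.09, adjusted p = 0.609) and with anti-LTβR alone (0.11, adjusted p = 0.364) being of opposite sign and similar size. For Zeb1 it was -0.26 (95% interval -0.40 to -0.12, adjusted p = 0.00818), and with only libraries above 14000000 reads it did not pass (adjusted p = 0.0546).
Twist2 had an interaction of 0.67 (95% interval 0.17 to 1.17) that narrowly failed (adjusted p = 0.0527 from limma) and passed with edgeR (adjusted p = 0.0264) and DESeq2 (adjusted p = 0.0127) on recovered reads. Zeb2 (-0.24, adjusted p = 0.0769 from limma), Twist1 (-0.24, adjusted p = 0.0912) and Prrx2 (-0.17, adjusted p = 0.301) did not pass.

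The genes around these factors were read from lists chosen with earlier results known. Of 18 epithelial genes that the factors are known to repress, 15 were tested between combination and untreated tumors, 3 fell and none rose (median difference -0.05, against -0.02 over all genes, of which 23.6% were called lower and 19.6% higher). All 3 are keratins of simple epithelium. Krt18 fell from 7356 ± 2194 to 2664 ± 695 (-1.46, adjusted p = 2.99e-05 from limma), Krt8 from 9519.7 ± 2014 to 5024 ± 1021 (-0.92, adjusted p = 0.000124) and Krt19 from 3919 ± 884 to 2505 ± 757 (-0.67, adjusted p = 0.00525). edgeR and DESeq2 could test only Krt18 of these 3, and called it. Cdh1, which encodes E-cadherin, was 414 ± 149 and 408 ± 274 and did not pass (adjusted p = 0.618 from limma).
With anti-LTβR alone, where 8.1% of all genes were called lower, 4 of 14 tested genes of that list fell and none rose, and Cdh1 was among them (-0.94, adjusted p = 0.0333 from limma), though the 4 became 2 with edgeR and library totals and 1 with libraries above 14000000 reads.

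Of 16 mesenchymal products 9 rose and 2 fell under the combination (median 0.66), beside 19.6% of all genes called higher and 23.6% lower. The genes with the smallest p encode collagens and a collagen-binding protein of the matrix. Sparc went from 20058 ± 2166 to 49413 ± 15182 (1.25, adjusted p = 2.82e-05 from limma), Col1a2 rose by 1.66 (adjusted p = 2.95e-05), Col3a1 by 1.58 (adjusted p = 4.01e-05) and Col1a1 by 1.54 (adjusted p = 5.40e-05). The 2 that fell were Cdh2, which encodes N-cadherin (-0.93, adjusted p = 0.000294), and S100a4 (-0.86, adjusted p = 0.000250), and the intermediate filament gene Vim (-0.21, adjusted p = 0.108) and the fibronectin gene Fn1 (-0.20, adjusted p = 0.374) did not pass. With anti-LTβR alone 3 of the 16 fell and none rose, beside 8.1% of all genes called lower.

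Of 13 genes of TGF-β signaling, which induces most of these factors, 4 rose and 7 fell, again beside 19.6% and 23.6% of all genes. The 4 were a ligand and the receptors, with Tgfb2 higher by 0.84 (adjusted p = 3.57e-05 from limma), Tgfbr3 by 0.85 (adjusted p = 0.000185), Tgfbr2 by 0.45 (adjusted p = 0.00127) and Tgfbr1 by 0.24 (adjusted p = 0.0381). Among those that fell were the signal transducer Smad3 (-0.71, adjusted p = 1.09e-05) and the ligand Tgfb1 (-0.42, adjusted p = 0.000109).
Among 7 tested dimer partners and Id inhibitors of the TWIST proteins, Tcf4 rose (0.23, adjusted p = 0.0162 from limma), and Tcf3 (-0.36, adjusted p = 0.000229) and Id4 (-0.68, adjusted p = 0.00179) fell. Of 11 corepressors that SNAI and ZEB proteins recruit, Hdac1 rose and 5 fell, Ctbp2 by 0.57 (adjusted p = 4.01e-05), and with libraries above 14000000 reads 3 of the 11 were called, 1 higher and 2 lower. These shares and the next are to be read against the 43.2% of all genes called. Of 8 genes for the turnover of SNAI1 and its relatives 3 fell, which were Usp27x, Ctdsp1 and Fbxl14 (by 0.44, 0.18 and 0.25). Of 18 other mesenchymal transcription factors tested 6 rose and 8 fell, and the 4 with the smallest p were Meox2 (1.24), Tbx18 (-0.73), Runx1 (-0.43) and Meox1 (1.18).

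Markers of other cell types moved with the groups. In combination against untreated tumors 7 of 8 fibroblast markers rose (median 1.14, with 19.6% of all genes called higher), among them the matrix proteoglycan gene Dcn (1.52, adjusted p = 5.52e-05 from limma) and Dpt (1.95, adjusted p = 4.03e-05). Their summed level ran from 7764 to 15653 normalized counts in untreated, 5571 to 15168 in ADU-S100, 7849.6 to 14531 in anti-LTβR and 16177 to 47690.1 in combination tumors. The combination group did not overlap any other in this sum, as for Prrx1 against the monotherapies, and the part of these markers in the Prrx1 result was not tested.
All 6 endothelial markers, all 5 mural markers tested, all 5 T cell markers, 5 of 7 macrophage and 3 of 4 B cell markers rose too, where with libraries above 14000000 reads the counts were 3 for mural and 3 for macrophage markers. Of 6 epithelial markers tested 3 fell, which are the keratins above, and their summed level was 16068 to 28985 in untreated, 13379 to 21826 in ADU-S100, 13184 to 16282 in anti-LTβR and 6857 to 14812 in combination tumors. Their part in the Prrx2 result was not tested. None of the skeletal muscle, keratinocyte or adipocyte markers passed, 1 of 4 neutrophil markers rose, and of 4 Schwann cell markers 3 rose and 1 fell. No marker was at 0 in all tumors of a group. With anti-LTβR alone 4 of 6 endothelial, 3 of 7 macrophage, 2 of 5 T cell, 2 of 8 fibroblast, 1 of 5 mural and 1 of 4 B cell markers rose and 3 of 6 epithelial markers fell, beside 7.21% of all genes called higher and 8.1% lower, and their part in the Twist2 result was not tested. With libraries above 14000000 reads these counts were 0 for fibroblast, 0 for mural, 1 for T cell, 1 for epithelial and 2 for B cell markers. The B cell count was 0 with at least 10 normalized counts asked of every library. None of the 4 keratinocyte markers was called with anti-LTβR in the main limma fit (median -0.69). With edgeR and RLE size factors, with DESeq2 and with that stricter filter, 1 was called lower. Their summed level had a lowest, median and highest value of 2287, 11979.7 and 35309 in untreated and 1485, 4532 and 33891 in anti-LTβR tumors. In combination tumors 1, 4, 5 and 8, with Twist2 from 354 to 417, that sum was 29669 to 53108, and in tumors 2, 3, 6 and 7, with Twist2 from 177 to 267, it was 1327 to 7749. The untreated tumor with the highest sum (35309) had 286 normalized counts of Twist2, near that group's median. With ADU-S100 and with anti-LTβR, the tumors with the highest sums (32074 and 33891) had 348 and 282, the highest Twist2 values of those groups. The part of the keratinocyte markers in the Twist2 values was not tested.

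**Figure D4:**
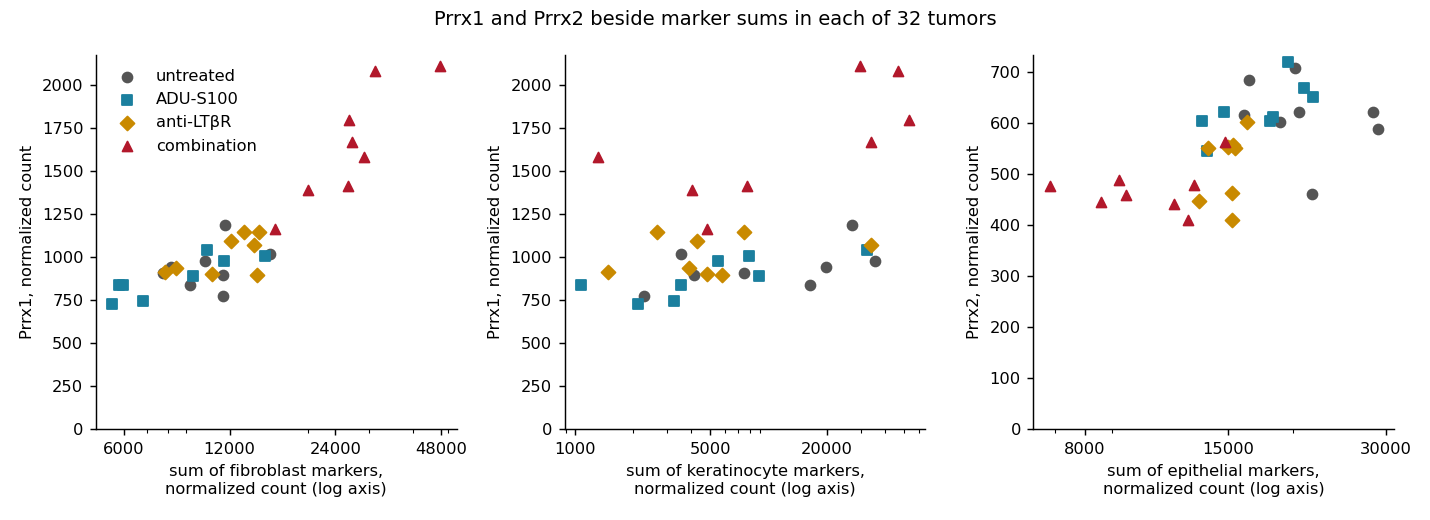
Prrx1 or Prrx2 (vertical axes, normalized count) against summed marker genes (horizontal log axes, normalized count) in each of 32 tumors, by treatment. Fibroblast sums of 16177 to 47690.1 in combination tumors lie to the right of all others and rise with Prrx1, keratinocyte sums spread across every group, and epithelial sums are lowest in combination tumors, beside their low Prrx2.

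For relations within groups, each marker list was read as the mean log2 value of its markers, not as the sum above. After subtracting group means, Prrx1 went with the fibroblast mean (r = 0.61, permutation p = 0.000530, and rho = 0.55, permutation p = 0.00208, over 32 tumors). Adjusted over 24 relations of Prrx1 and Prrx2 with 12 marker means, these p were 0.0127 and 0.0250. Without the 2 tumors farthest from the median of Prrx1, r was 0.47. Prrx1 also went with the keratinocyte mean (r = 0.57, rho = 0.58, adjusted permutation p = 0.0262 and 0.0250, r = 0.57 without 2 tumors). With the endothelial mean r was 0.54 (adjusted permutation p = 0.0306) and rho 0.49 (adjusted permutation p = 0.0619).
Prrx2 had no such relation with the fibroblast mean (r = 0.13, rho = 0.16, adjusted permutation p = 0.510 and 0.491). Its only relation that passed by r was with the macrophage mean (r = -0.48, adjusted permutation p = 0.0437), which was -0.31 without 2 tumors and did not pass by rho (-0.40, adjusted permutation p = 0.0932).

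Among the 28 pairs of factors, 1 pair was correlated over the 32 tumors after subtracting group means. Snai2 and Twist2 had r = 0.58 and rho = 0.62 (permutation p = 0.000670 and 0.000450, adjusted over the 28 pairs 0.0188 and 0.0126), and r was 0.56 without the 2 farthest tumors. Twist2 with Prrx1 (r = 0.57, rho = 0.53) and Zeb1 with Zeb2 (r = 0.55, rho = 0.47) had an adjusted permutation p of 0.0537 each by r, and the second dropped to r = 0.28 without 2 tumors, so it rests on them. Prrx1 and Prrx2, and Snai1 and Snai2 (r = -0.19, rho = -0.25, adjusted permutation p = 0.636 and 0.508), were not among the pairs that passed.

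The genes whose levels were most like each factor by the same measure, among 17641 genes over 32 tumors, are given as a description. For Prrx1 they were Dnm3os (r = 0.87), a noncoding RNA within the Dnm3 gene, Igsf10 (0.85) and Clstn2 (0.84). For Prrx2 they were Thsd4 (0.70), Sema4b (0.69) and Arhgap17 (0.68). Zeb2 had Zfp292 at 0.87, and Zeb1 had Foxk1 at 0.81.
Twist1 had Plp2 at 0.82, Twist2 had Sult2b1 at 0.79, Snai2 had Sars at 0.74 and Snai1 had Bcl6 at 0.62. The points share library, depth and tissue makeup.

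A second experiment, called ST#15 in the labels, holds 20 further tumors in lettered groups A to D with 5 tumors each. For groups A, B and C the labels contradict each other, one giving the combination throughout and another a different treatment by letter, and only for D do they coincide on the combination, so the letters are used here with no treatment. They were normalized over 52 libraries together, with 8716257 to 18821792 recovered reads per tumor, and are not set against the values above. Tumor 3 of group D and tumor 3 of group C stood apart, with a median correlation to their own group of 0.694 and 0.789. Their size factors also differed, with 1 read worth 3.78 and 1.38 normalized counts, against 0.779 to 0.959 in the other tumors of ST#15.
Prrx2 in group D was 877, 806, 7717, 289.9 and 849 normalized counts in tumors 1 to 5, and Prrx1 in the same tumors was 1042, 1379, 185, 2143 and 1037. Tumor 3 was the highest in the former and the lowest in the latter, and tumor 4 the reverse. The ratio of Prrx1 to Prrx2 ran from 0.964 to 2.52 in group A (median 1.34), 1.31 to 4.86 in B (2.06), 0.394 to 2.37 in C (2.24) and 0.0240 to 7.39 in D (1.22), so D overlapped every other group. In group A Prrx1 ran from 836 to 1161 and Prrx2 from 461 to 867.
None of the 8 factors was called between groups D and A by limma, where 1.05% of 15096 genes were called (0.961% higher and 0.0927% lower, and 1.04% with a 2-fold change). Under an unadjusted 0.05 were 2 of the 8 (Zeb1 0.00959 and Zeb2 0.0333 from limma), and DESeq2, which called 1288 genes higher and 502 lower out of 15391, called Zeb1 (-0.57, adjusted p = 0.0371). Prrx1 differed by -0.14 (95% interval -1.30 to 1.03) with all tumors and by 0.43 without tumor 3 of group D (adjusted p = 0.213 from limma). Prrx2 differed by 0.63 (95% interval -0.86 to 2.13), by 1.78 with edgeR and RLE size factors (adjusted p = 0.196), by 1.79 with DESeq2, which gave no adjusted p, and by -0.08 with limma without that tumor. All 5 D tumors were below every A tumor in Zeb1 (518 to 964 against 999 to 1214), as in 8.1% of genes, while 4.27% had the groups apart in the other direction. Between the same groups 4 of 4 B cell and 3 of 4 keratinocyte markers (medians 2.78 and 3.83) and 1 each of the fibroblast and endothelial markers were called higher, and their part in the factors' values was not tested.

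**Figure D5:**
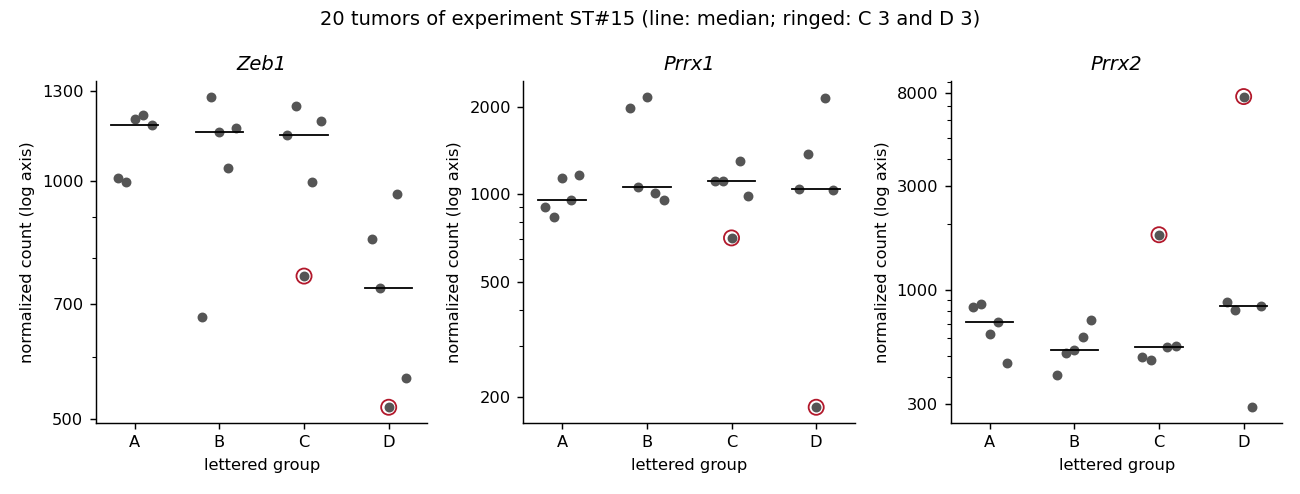
Zeb1, Prrx1 and Prrx2 in the 20 tumors of the lettered groups A to D of ST#15 (log axes, normalized count), with the group median as a line and tumors C 3 and D 3 ringed. The ringed D tumor holds the highest Prrx2 (7717) and the lowest Prrx1 (185), and Zeb1 is lower in all D tumors (518 to 964) than in the A tumors (999 to 1214).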

How the data were processed

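The 4 groups of 8 tumors came from the sample labels, and doses, day and strain from the paper's methods. The values the authors deposited are a signal, with the reads of each library scaled by its own size factor, in a table of 32 libraries (27525 genes) and one of 52 (27894 genes), replicates not pooled. Trimming with Cutadapt 1.9 is given, and HISAT2 with StringTie or STAR in Partek are named per the labels with build mm39, but which made each table is not given in the sources used here. From the second table whole reads were recovered (tolerance 0.001 reads). A deposited table of scores and p-values from the authors' own enrichment tests was not used.

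Each comparison used limma 3.58.1 (trend, R 4.3.3) on log2(value + 1) of its own libraries after filterByExpr of edgeR 4.0.16 (count minimum 10), which suits a normalized signal, and the interaction used all 32. Alternatives were edgeR and DESeq2 1.42.0 on recovered reads, other filters, a pseudocount of 0.5, all 4 groups fitted jointly, a block for the replicate number, and only the 25 libraries above 14000000 reads. Library totals for ST#15 were added after seeing the data. Correlations used 100000 permutations (SciPy 1.17.1). The fits were tested on simulated counts with known changes. Printed positions are those of GENCODE M21 on GRCm38, the annotation at hand. The deposited coordinates are of another build (572 of 26500 genes have the same start) and were not used. Counting limits the precision of genes with few reads, and no member had under 86 normalized counts in a tumor. Named genes were all 8 members, up to 4 called genes per list with the smallest p, and the 3 genes most like each member, and Cdh1, Cdh2, S100a4, Vim, Fn1, Tgfbr1, Tgfbr2 and Hdac1 were named after their values were seen. The members and lists were chosen with earlier results of these data known.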

Additional observations from a re-analysis of the deposited data

Results flagged for a closer look

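In 64 sets of tumors (8 genes in 8 groups), 4 held a single tumor far from the rest of its group, where chance gives about 1 in 20. All 4 are in ST#15. In group C the same tumor, number 3, was lowest for Zeb2 at 905 normalized counts and for Snai2 at 169, and highest for Prrx2 at 1793. In group D tumor 3 was highest for Prrx2 at 7717. Both libraries correlated less with their own group than the others did (0.789 and 0.694), and the D library had the fewest reads of the experiment (8716257) and 13.5% of them in its 10 most abundant genes. A read was worth 1.38 normalized counts in the C library and 3.78 in the D library, more than in any other tumor of ST#15. What part these features have in the values was not tested.

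The effect of adding ADU-S100 differed with and without anti-LTβR for Prrx1, with an interaction of 0.78 on the log2 scale, and for Zeb1, with -0.26, both by the interaction term of the joint limma fit (adjusted p = 0.000848 and 0.00818).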

How the results depend on the processing

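The replicate numbers did not pair the tumors, since not every same-numbered pair deviated together in any comparison (mean correlations from -0.09 to 0.19). With the number as a replicate block, the members called went from 1 to 0 for anti-LTβR against untreated tumors (Twist2, adjusted p = 0.0507 from limma) and from 2 to 4 for the interaction (Twist1 and Twist2 joined, adjusted p = 0.0447 and 0.0365). In the comparison of the combination with ADU-S100 the block lost Zeb2 (0.0599), and against untreated tumors it added Twist1 (0.0276). Asking for a 2-fold change as well left 0 members in each comparison, from 2 (combination against untreated), 1 (anti-LTβR against untreated), 1 (combination against anti-LTβR) and 5 (combination against ADU-S100). The last count was 3 with edgeR and library totals and 3 with libraries above 14000000 reads. For anti-LTβR it was 2 with DESeq2 and 2 in the joint fit, Prrx2 joining Twist2. ST#15 had 0 called, 1 with DESeq2, and 0 to 0 when any 1 tumor was left out. Correlated pairs were 1, and 3 on log2 CPM of recovered reads.

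Of the differences printed for members, none that passed changed sign. Values that did not pass and changed sign were Zeb2 in combination against untreated tumors (0.055 above 14000000 reads), Snai1 (-0.011) and Twist1 (-0.015) for anti-LTβR at that depth, Twist1 there with edgeR RLE (-3.02e-06) and DESeq2 (-0.000169), and Snai2 for the combination against ADU-S100 (0.00189 with edgeR RLE, 0.00671 with library totals, 0.00295 with DESeq2, 0.029 above 14000000 reads). In ST#15 these were Twist1 (-0.085 with edgeR and library totals, -0.091 with limma on library totals) and Prrx1 (0.24 with edgeR RLE, 0.16 with library totals, 0.24 with DESeq2). Prrx2 there went from 0.63 to 1.78 with edgeR RLE and 1.79 with DESeq2. Leaving out 1 tumor of ST#15 gave -0.45 to 0.43 for Prrx1 and -0.085 to 1.10 for Prrx2, and the sign changed only without D 3 (0.43 and -0.085). Over all genes, ST#15 had 145 higher and 14 lower with limma, 1288 and 502 with DESeq2, and 698 and 707 without D 3. Library totals moved the median of all genes in ST#15 from -0.06 to -0.31. The split of calls moved from 1917 higher and 2587 lower to 2074 and 1781 with edgeR RLE in combination against anti-LTβR, and from 1293 and 1947 to 1476 and 1399 for the interaction. Causes were not tested.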
